A study of Saccharomyces cerevisiae with 12 samples.

Results

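The 7 genes HIS1 to HIS7 of the budding yeast Saccharomyces cerevisiae encode the enzymes that make histidine. They were chosen by gene name, with no limit on expression, and are 7 of the 5967 transcripts used here. The set was selected on earlier results of these data in which HIS4 stood out in 3 contrasts: perchlorate in wild type, the untreated strains, and the difference between the strains' perchlorate responses. The values of HIS4 in those contrasts are therefore given as a description, with no test. Its perchlorate response in the mutant and its strain difference in perchlorate follow from those values, and are only described too. The other 6 members came with HIS4 by name.

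Histidine is built from phosphoribosyl pyrophosphate (PRPP) and ATP. HIS1 encodes the ATP phosphoribosyltransferase of the first step, which histidine inhibits. The HIS4 product carries an early pair of steps and also the last one, the oxidation of histidinol. HIS6 encodes the isomerase that follows, and HIS7 the glutamine amidotransferase and cyclase that closes the imidazole ring. The HIS7 step releases AICAR, an intermediate of purine synthesis, so the histidine and purine pathways are joined there. HIS3 encodes the dehydratase after HIS7, HIS5 the aminotransferase, and HIS2 the phosphatase that gives histidinol. In yeast, amino acid shortage raises translation of the activator Gcn4, which acts on histidine genes among many others. Bas1 with Pho2 activates purine genes and also HIS4 and HIS7.

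RNA was sequenced from 12 libraries in 6 groups of 2. BY4741, a haploid laboratory strain, served as wild type (WT). The mutant, labelled with the same strain name, had a deletion of EDC3 and lacked the Q/N-rich C-terminal domain of Lsm4 (edc3∆lsm4∆C). Edc3 and this domain help to assemble P-bodies, cytoplasmic condensates of untranslated mRNA. WT and mutant were grown untreated or continuously with 100 mM NaClO4 (sodium perchlorate), and further WT cells were left unshocked or exposed to a shock of 5.6 Mach and then grown. All cultures were grown in Ura- medium at 30 °C and harvested at an OD600 of 0.4 to 0.5. BY4741 is known to carry a partial deletion of HIS3 and to need histidine from the medium. The labels give neither the HIS3 allele of the mutant nor the amounts of histidine and adenine in the medium.

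The libraries held 14110933 to 18363356 reads on transcripts. Counts of paired replicates differed by 16.6 to 37.6 times what sampling alone gives (chi-square over its degrees of freedom), so no library was counted as a repeat of another. The labels do not say whether replicates were separate cultures, and the p-values cover no more than the spread between these libraries, possibly a technical one. In the mutant libraries EDC3 had 1 to 4 reads, against 745 to 1365 in those of WT. LSM4 overlapped, at 696 to 710 in the mutant and 509 to 1100 in WT, so these counts do not show the loss of its domain. The strains also differed beyond the labelled mutations. LEU2 had 5366 to 6398 reads in the mutant and 0 to 23 in WT, and MET17 had 8873 to 30889 and 0 to 52. URA3 had 6739 to 8675 in the mutant and 2071 to 4198 in WT. The alpha-factor gene MF(ALPHA)1 had 6140 to 22817 reads in the mutant and 4 to 111 in WT, while the a-factor gene MFA1 had 6 to 13 and 776 to 5490. STE3, another gene of alpha cells, had 2684 to 4464 and 95 to 278. SAG1, also of alpha cells, overlapped between strains at 400 to 1157 and 433 to 941, and in perchlorate it was lower in the mutant. The a-cell genes MFA2 (124 to 184 and 1333 to 9894) and STE2 (40 to 67 and 3586 to 14929) went with MFA1. In every comparison of mutant with WT below, the labelled mutations and this difference in strain cannot be told apart. In bulk RNA, fewer cells with a transcript and less of it per cell cannot be told apart either.

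Each member is a gene of 1 exon, wholly coding as annotated by RefSeq on build R64, with no overlapping gene and no near-identical copy elsewhere in the annotated transcripts. HIS4 (YCL030C) lies on chromosome III at 65934 to 68333 and is the longest, at 2400 bases. HIS1 (YER055C) lies on chromosome V at 264892 to 265785, HIS2 (YFR025C) on chromosome VI at 203743 to 204750, and HIS7 (YBR248C) on chromosome II at 714807 to 716465. All of these are on the minus strand. HIS3 (YOR202W) lies on the plus strand of chromosome XV at 721946 to 722608, and HIS5 (YIL116W) on the plus strand of chromosome IX at 142928 to 144085. HIS6 (YIL020C) is on the minus strand of the same chromosome at 314035 to 314820. The deposited files name no build, and these coordinates come from the match of their transcript accessions to R64.

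The windows from 250 bases before to 50 bases after the start codon of 6 members (all but HIS1) were read from the R64 genome and searched on both strands for TGACTC, the core shared by Gcn4 and Bas1 sites. Its longer form with a final A, TGACTCA, overlaps it. The windows of 4 genes are printed because these genes span the range of responses described below, from HIS4 with the largest differences to HIS2 with the smallest in perchlorate-grown WT. They are chrIII:68284-68583, chrII:716416-716715 and chrVI:204701-205000 on the minus strand and chrIX:142678-142977 on the plus strand. Each is written 5′ to 3′ on the strand of its gene, and capitals mark the core in either orientation (GAGTCA is the core on the opposite strand).
HIS4: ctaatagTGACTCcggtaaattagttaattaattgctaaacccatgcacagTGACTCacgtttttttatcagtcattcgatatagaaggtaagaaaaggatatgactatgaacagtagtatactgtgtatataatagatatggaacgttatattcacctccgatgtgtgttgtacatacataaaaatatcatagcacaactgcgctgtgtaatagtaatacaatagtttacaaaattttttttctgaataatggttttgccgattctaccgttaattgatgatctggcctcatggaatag
HIS7: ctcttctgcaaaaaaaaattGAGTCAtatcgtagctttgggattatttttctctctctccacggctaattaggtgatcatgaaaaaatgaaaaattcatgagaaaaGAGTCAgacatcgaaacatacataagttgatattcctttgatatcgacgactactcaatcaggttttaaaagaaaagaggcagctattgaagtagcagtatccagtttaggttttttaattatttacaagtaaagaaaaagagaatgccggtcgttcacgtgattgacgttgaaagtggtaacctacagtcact
HIS5: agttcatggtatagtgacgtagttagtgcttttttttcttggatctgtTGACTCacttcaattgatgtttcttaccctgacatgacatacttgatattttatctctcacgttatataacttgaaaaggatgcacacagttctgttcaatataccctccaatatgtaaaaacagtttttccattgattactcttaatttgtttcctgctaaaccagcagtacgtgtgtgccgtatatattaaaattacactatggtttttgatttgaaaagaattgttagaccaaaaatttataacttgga
HIS2: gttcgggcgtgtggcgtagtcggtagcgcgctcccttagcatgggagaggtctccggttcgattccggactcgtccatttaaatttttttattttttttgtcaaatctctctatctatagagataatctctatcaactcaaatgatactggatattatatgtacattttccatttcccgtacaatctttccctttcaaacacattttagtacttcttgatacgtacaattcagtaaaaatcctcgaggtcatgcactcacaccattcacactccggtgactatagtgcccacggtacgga
The core was present in 5 of the 6 windows and absent from that of HIS2, against 478 of 6000 windows in all (7.97%). HIS4 and HIS7 held 2 copies each, as did 31 windows in all with 2 or more (0.517%). In HIS4 the copies began 243 and 199 bases before the start codon, and the nearer one was the longer form. The longer form was found in HIS4, HIS5 and HIS7, and in 2.72% of all windows. HIS3 and HIS6 held 1 copy of the core each. The TATA sequence TATAAA was found in 2 of the 6 windows (HIS3 and HIS5) and in 45.2% of all windows. In HIS3 it lay 68 to 63 bases before the start codon, on the strand of the gene. In HIS5 it lay on the opposite strand and inside the coding sequence, 37 to 42 bases after the first base of the start codon. The HIS2 window runs into a noncoding gene, YNCF0011C, that lies 173 bases upstream. These matches describe letters in a window and were not tested as binding sites.

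Levels of different members were compared per length, as RPKM (reads per kilobase of transcript, scaled to the recovered reads of the library). HIS1 was the highest of the 7 in each of the 12 libraries, with group means from 187 ± 0.65 RPKM in WT perchlorate to 396 ± 20.8 in WT untreated (SD, n = 2). HIS4 came next in the 3 WT groups without perchlorate, at 177 ± 15.9 RPKM untreated, 279 ± 15.4 unshocked and 214 ± 34.0 shocked. In WT perchlorate it had dropped below HIS3, HIS5 and HIS2 in mean level, at 47.5 ± 4.41 RPKM, and its range overlapped that of HIS6. In the mutant it was the lowest of the 7, at 42.2 ± 7.06 untreated and 50.4 ± 1.62 in perchlorate, with no overlap with the next member, HIS6. HIS3 and HIS5 came next after HIS1 in the mutant, at 135 ± 9.61 and 127 ± 4.26 RPKM untreated and 174 ± 26.3 and 173 ± 9.45 in perchlorate, and their ranges overlapped in both groups. In WT untreated they stood at 95.6 ± 2.96 and 114 ± 1.70. The HIS3 level is per 663 annotated bases, which a partly deleted allele would not have in full, so its place in the order is uncertain. HIS2, HIS6 and HIS7 stayed between 35.7 and 78.6 RPKM in every library. In WT untreated the ranges of HIS6, HIS7 and HIS2 overlapped between neighbours in the order. The groups of the shock experiment were placed beside the others for their order only.

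**Figure D1:**
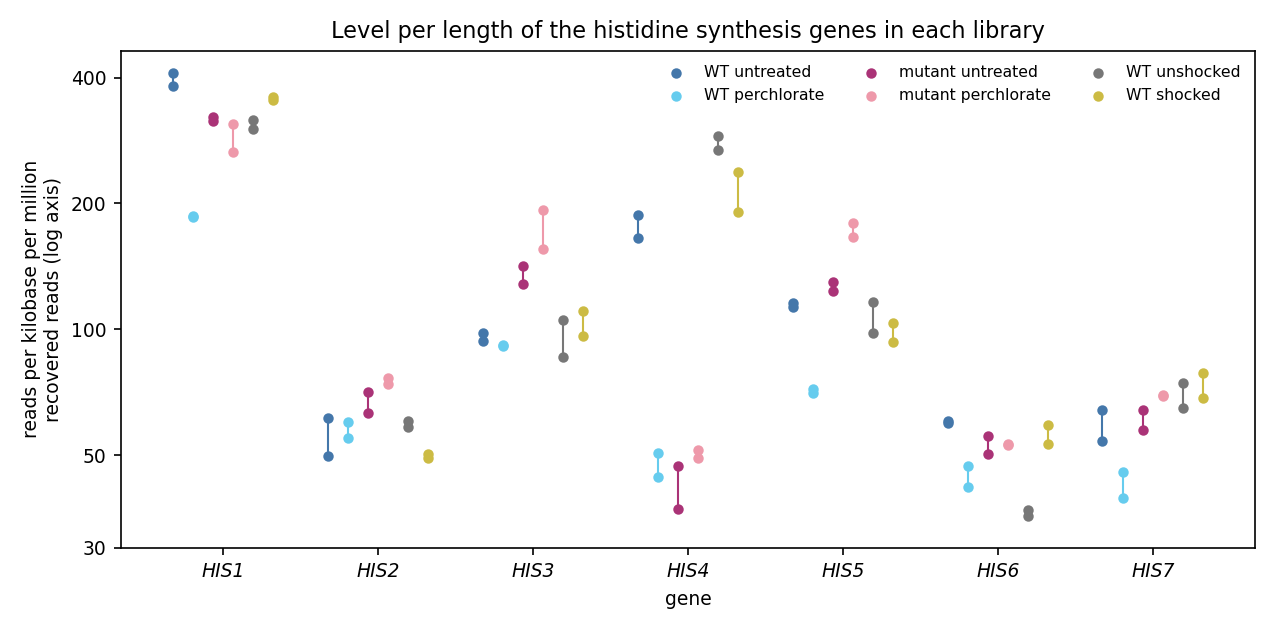
Level per length of each histidine gene (RPKM, log axis) in each of the 12 libraries, coloured by group, with a line joining the 2 libraries of a group. HIS4 lies between 165 and 290 RPKM in the WT groups without perchlorate and between 37.2 and 51.5 in WT perchlorate and in both mutant groups.

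The first comparison set WT grown in perchlorate against WT grown without it, to find what the salt alters. HIS4 and HIS1 were lower in perchlorate by the largest amounts among the 7. HIS4 had 6198 and 7254 normalized counts (reads divided by the size factor of the library within a deposited table) in the untreated libraries, and 1709.9 and 1599 in perchlorate. The groups lay far apart, and the log2 difference was -2.02 ± 0.14 (SE), or 0.247 times the untreated level. HIS1 had 5319 and 5902 normalized counts untreated and 2351 and 2495 in perchlorate. It fell by 1.21 ± 0.13 on the log2 scale (limma, adjusted p = 0.000187). HIS5 had 2046 and 2152 normalized counts untreated and 1172 and 1222 in perchlorate. Both perchlorate libraries were below both untreated ones, and HIS5 fell by 0.81 ± 0.13 (adjusted p = 0.00217). HIS7 had 1401 and 1712 normalized counts untreated against 1061 and 979.99 in perchlorate, a fall by 0.60 ± 0.15 (adjusted p = 0.0157). HIS6 had 739.7 and 752 against 463 and 554, a fall by 0.56 ± 0.15 (adjusted p = 0.0224). For both genes the groups did not overlap, but the calls rested on single libraries. Without WT perchlorate 1 the adjusted p was 0.0852 for HIS7 and 0.265 for HIS6, and without WT perchlorate 2 it was 0.114 and 0.0564, which left 3 members called. HIS3 was at -0.19 ± 0.14 (adjusted p = 0.329) and HIS2 at -0.07 ± 0.15 (adjusted p = 0.756), neither past the test.

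In all, 5 of 7 members were called lower at an adjusted p under 0.05 and 0 higher, or 4 of 6 lower beside HIS4. Of the 5664 transcripts tested, 12.1% were called lower and 14.3% higher. The median log2 difference was -0.60 over the 7 members and 0.000748 over all transcripts tested. In the authors' deposited table for this comparison, HIS1, HIS4, HIS5, HIS6 and HIS7 were classed as down, with log2 fold changes from -2.02 for HIS4 to -0.55 for HIS6.

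In the mutant the same salt gave small differences. HIS4 had 1756 and 1362 normalized counts untreated and 1658 and 1835 in perchlorate. The libraries overlapped, and the log2 difference was 0.17 ± 0.13. Without mutant untreated 1 it was 0.36. HIS5 had 2328 and 2182 normalized counts untreated and 2707 and 3092 in perchlorate. It rose by 0.36 ± 0.10 (limma, adjusted p = 0.0230), a call that ended without mutant untreated 2 or mutant perchlorate 2. HIS1 had 4370.1 and 4376 normalized counts untreated and 3338 and 4111 in perchlorate. Its difference of -0.24 ± 0.11 did not pass (adjusted p = 0.129), but without mutant perchlorate 2 it did (adjusted p = 0.0150). HIS3 was at 0.27 ± 0.13 (adjusted p = 0.151), and passed without mutant untreated 1 (0.0270) or mutant perchlorate 1 (0.0124). HIS7 at 0.10 ± 0.10, HIS2 at 0.08 ± 0.10 and HIS6 at -0.09 ± 0.10 did not pass (adjusted p of 0.435 to 0.560). Thus 1 of 7 members was called higher and 0 lower, against 18% and 15.7% of the 5670 transcripts tested, a share near the background. The median over the members was 0.10.

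The difference between the 2 responses was fitted over the 8 libraries of both strains, each response within its own table. HIS4 differed by 2.19 ± 0.20 on the log2 scale, from -2.02 in WT to 0.17 in the mutant. HIS5 differed by 1.17 ± 0.14 (limma, adjusted p = 0.00335) and HIS1 by 0.97 ± 0.16 (adjusted p = 0.0156). The HIS1 call ended without WT perchlorate 1 (0.0653), mutant untreated 1 (0.0648), mutant untreated 2 (0.0651) or mutant perchlorate 2 (0.0611). HIS7 differed by 0.71 ± 0.17 and did not pass (adjusted p = 0.0737), though it did without WT untreated 1 (0.0110) and with DESeq2 (0.0162). HIS6 at 0.47, HIS3 at 0.46 and HIS2 at 0.15 did not pass (adjusted p of 0.241, 0.349 and 0.747). So 3 of 7 members were called higher in this contrast and 0 lower, or 2 of 6 beside HIS4, with 1.89% and 0.695% of the 5615 transcripts tested called in these directions.

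**Figure D2:**
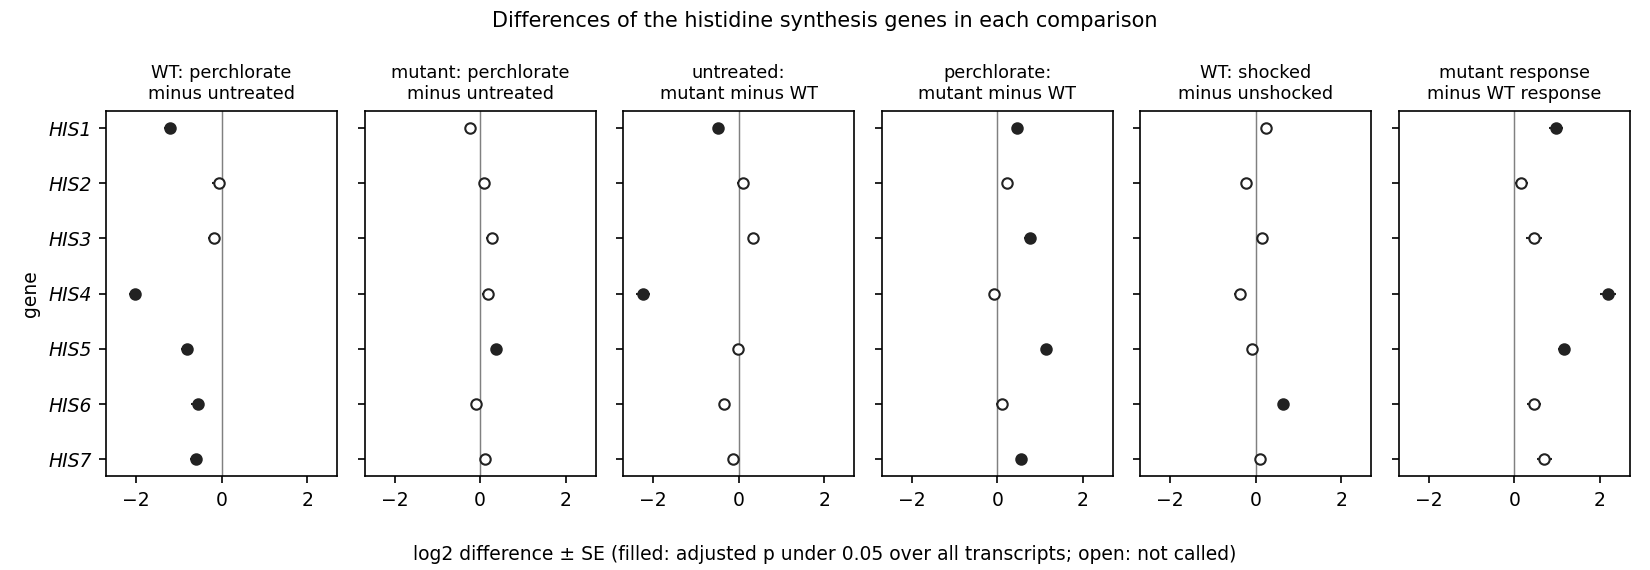
Log2 difference of each histidine gene in the 5 comparisons and, at the right, the mutant response to perchlorate minus the WT response, with SE bars that are mostly shorter than the points. Filled points passed an adjusted p of 0.05 over all transcripts tested. HIS4 is filled by the same rule, but in the contrasts that led to its choice this is no test. HIS4 is at -2.02 for perchlorate in WT, at -2.24 between untreated strains and at -0.07 between strains in perchlorate.

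The untreated strains were compared to see what the mutant differed in before any salt. This comparison shares the untreated WT libraries with the WT salt comparison and the untreated mutant libraries with the mutant one. HIS4 had 6103 and 7216 normalized counts in WT and 1597 and 1236 in the mutant, a log2 difference of -2.24 ± 0.15, or 0.212 times the WT level. Both mutant libraries were near the values of perchlorate-grown WT in RPM (reads scaled to the recovered total of the library), at 113 and 89.3 against 122 and 107. HIS1 had 5237 and 5871 normalized counts in WT and 3973 and 3972 in the mutant. It was lower, at -0.48 ± 0.10 (limma, adjusted p = 0.0186), and the call ended without mutant untreated 1 (0.103) or mutant untreated 2 (0.104). HIS6 did not overlap between strains, with 728 and 748 against 556 and 603, but did not pass at -0.35 ± 0.12 (adjusted p = 0.0813). HIS3 was also apart without overlap, with 953 and 1036 in WT and 1324 and 1174 in the mutant, at 0.33 ± 0.12 (adjusted p = 0.101). HIS7 at -0.12 ± 0.14, HIS2 at 0.10 ± 0.13 and HIS5 at -0.02 ± 0.10 overlapped between strains and did not pass (adjusted p of 0.562 to 0.909). Hence 2 of 7 members were called lower and 0 higher, or 1 of 6 lower beside HIS4, with 11.6% and 11% of the 5665 transcripts tested called lower and higher. The median over the members was -0.12.

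In perchlorate HIS5, HIS3, HIS7 and HIS1 were higher in the mutant. HIS1 had been lower in the untreated mutant. HIS5 had 1297 and 1363 normalized counts in WT and 2726 and 3104 in the mutant. The mutant libraries were both higher, by 1.13 ± 0.10 on the log2 scale (limma, adjusted p = 7.88e-05), or 2.19 times. HIS3 had 940.1 and 1018 in WT and 1455 and 1900.4 in the mutant, higher by 0.76 ± 0.13 (adjusted p = 0.00273). The counts cover the whole HIS3 transcript and do not tell a partly deleted allele or a marker copy from an intact gene. HIS7 had 1174 and 1093 in WT and 1633 and 1714 in the mutant, higher by 0.56 ± 0.09 (adjusted p = 0.00231). HIS1 had 2602 and 2784 in WT and 3362 and 4127 in the mutant. It was higher by 0.47 ± 0.12 (adjusted p = 0.0155), and the call ended without WT perchlorate 1 (0.0729) or mutant perchlorate 2 (0.141). HIS2 at 0.23 ± 0.10 did not pass (adjusted p = 0.0954), nor did HIS6 at 0.10 ± 0.12 (adjusted p = 0.533). HIS4 had 1892 and 1784 normalized counts in WT and 1670 and 1841 in the mutant. These overlapped, with a log2 difference of -0.07 ± 0.10. In this comparison 4 of 7 members were called higher and 0 lower, against 16.3% and 15.6% of the 5701 transcripts tested. Their median was 0.47 and that of all transcripts tested -0.00788. In the authors' deposited table HIS3, HIS5 and HIS7 were classed as up here, and HIS1, with a log2 fold change of 0.48, as neutral.

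The shock comparison asked what remained different in WT cells grown after the shock. HIS6, which stood lowest of the 7 in unshocked cells, had 507 and 459.5 normalized counts unshocked and 729.7 and 781 shocked. It rose by 0.64 ± 0.10 on the log2 scale (limma, adjusted p = 0.00551), or 1.56 times, and the call ended without WT unshocked 2 (0.0734). HIS4 had 11232 and 11377 normalized counts unshocked and 10005 and 7713 shocked. The shocked libraries were both lower but far from each other, and the difference of -0.36 ± 0.14 did not pass (adjusted p = 0.0875). Without WT shocked 1 it passed, at -0.55 (adjusted p = 0.0145). HIS1 at 0.23 ± 0.08 and HIS2 at -0.23 ± 0.08 had groups that did not overlap and also did not pass (adjusted p = 0.0749 for both). HIS3 at 0.15 ± 0.11, HIS7 at 0.10 ± 0.09 and HIS5 at -0.09 ± 0.11 overlapped and did not pass (adjusted p of 0.323 to 0.523). The count was 1 of 7 members higher and 0 lower, beside 18.1% and 17.3% of the 5668 transcripts tested, so the share called was near the background. The median over the members was 0.10.

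Across the 12 libraries the members did not follow one pattern. By Pearson r on log2(RPM + 1), HIS4 was at 0.573 with HIS1, 0.473 with HIS7, -0.147 with HIS5, -0.188 with HIS6, -0.540 with HIS3 and -0.627 with HIS2. With TMM scaling these were 0.690 for HIS1, 0.689 for HIS7, 0.0249 for HIS5, 0.134 for HIS6, -0.436 for HIS3 and -0.424 for HIS2, so the signs of HIS5 and HIS6 turned. HIS1 ranked 478 among the 5317 transcripts compared with HIS4, or 631 with TMM scaling. Between members other than HIS4, r without that scaling ran from -0.195 (HIS1 with HIS2) to 0.836 (HIS3 with HIS5). The 5 transcripts outside the family most like HIS4 were ADE13 (adenylosuccinate lyase, r = 0.996), ADE17 (which takes up AICAR, 0.988), ADE12 (adenylosuccinate synthase, 0.978), AUS1 (a sterol importer, 0.975) and ADE1 (an enzyme that makes the precursor of AICAR in the purine pathway, 0.972). With TMM scaling the same 5 led. The libraries fall into a low set and a high set for HIS4: 89.3 to 124 RPM in the 6 libraries of WT perchlorate and the mutant, and 397 to 695 in the other 6. Libraries of a group share strain and treatment, so these r values describe 6 conditions rather than 12 independent points.

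**Figure D3:**
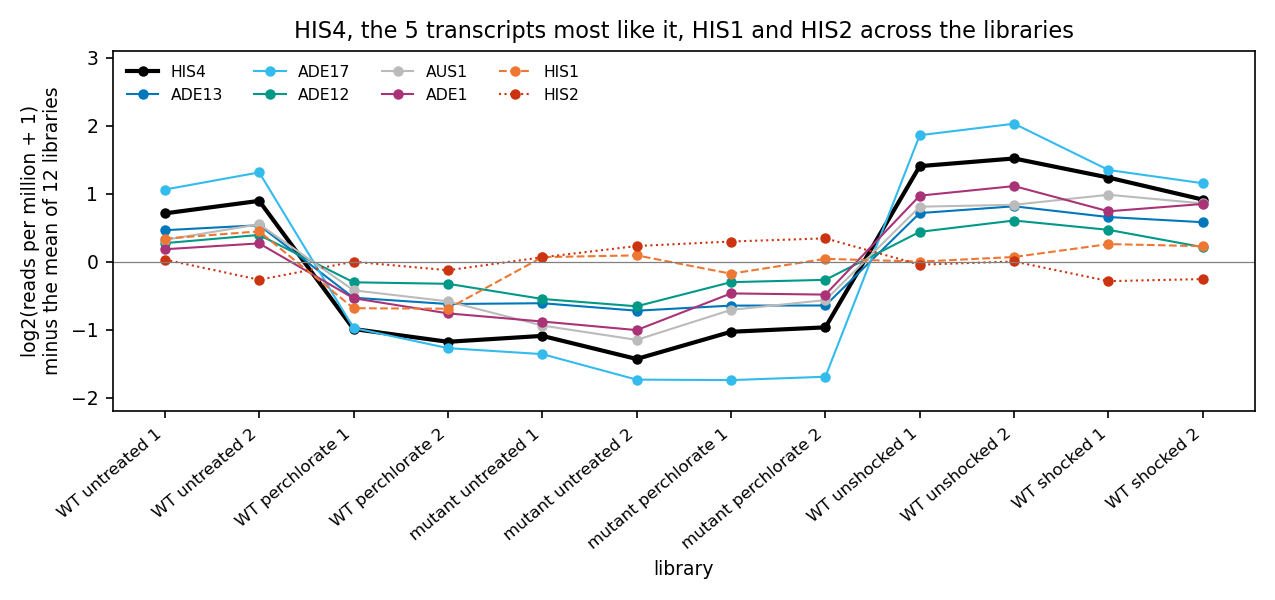
Log2(RPM + 1) in each library, minus the mean of the 12 libraries, for HIS4, the 5 transcripts most like it, HIS1 and HIS2. HIS4 and the 4 ADE genes are above their means in both libraries of the WT groups without perchlorate and below them in WT perchlorate and the mutant, while HIS2 is not.

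Purine genes of the Bas1 regulon were counted beside the histidine genes, on a list of 13. In perchlorate-grown WT 9 of 13 fell and 0 rose, beside 12.1% lower and 14.3% higher over all transcripts, with a median log2 difference of -0.86. ADE17 led at -2.44 ± 0.15 (limma, adjusted p = 6.7e-06), followed by ADE13 at -1.20 ± 0.13 (adjusted p = 0.000166). In the mutant 2 rose (SHM2 and ADE1) and 1 fell (ADE4), with a median of -0.04, numbers near the 18% and 15.7% over all transcripts. The ADE1 call ended without mutant untreated 2 or mutant perchlorate 2, and that of ADE4 without mutant untreated 2 or mutant perchlorate 1. Between untreated strains 11 of 13 were lower in the mutant and 0 higher (11.6% and 11% over all transcripts), with a median of -0.98, and ADE17 was at -2.91 ± 0.17 (adjusted p = 0.000156). In perchlorate 3 were lower in the mutant (ADE17, MTD1 and SHM2) and 1 higher (ADE8), beside 15.6% and 16.3% over all transcripts, with a median of -0.12. The SHM2 call ended without WT perchlorate 2, mutant perchlorate 1 or mutant perchlorate 2. For the difference between responses 7 were higher and 0 lower (1.89% and 0.695% over all transcripts), and ADE17 stood at 2.18 ± 0.22 (adjusted p = 0.00171) beside the 2.19 of HIS4. With shock 4 fell and 0 rose, beside 17.3% and 18.1% over all transcripts, a count that dropped to 1 without WT unshocked 1 or WT unshocked 2. TGACTC was found in 10 of the 13 promoter windows of this list. The list was chosen with earlier results of these data known. ADE13, ADE17, ADE12 and ADE1 were also among the 5 transcripts most like HIS4 in these libraries. Their values beside those of HIS4 are therefore not separate evidence.

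Of 40 Gcn4-regulated amino acid genes outside histidine, 17 fell and 2 rose in perchlorate-grown WT, beside 12.1% and 14.3% over all transcripts, with a median of -0.38. Without WT perchlorate 1, 8 fell and 0 rose, and without WT perchlorate 2 none rose. Arginine and branched-chain genes did not move alike in the strain comparisons. LEU1, of leucine synthesis, was lower in the untreated mutant at -2.13 ± 0.09 (limma, adjusted p = 3.12e-05), and ARG3, of arginine synthesis, was higher at 2.50 ± 0.13 (adjusted p = 9.46e-05). In that comparison 8 of 40 were higher and 13 lower (11% and 11.6% over all transcripts), with a median of -0.20, and 5 and 8 without mutant untreated 1, while 6 were lower without mutant untreated 2. In the mutant given perchlorate 13 rose and 4 fell (18% and 15.7% over all transcripts), with a median of 0.14. Between strains in perchlorate 16 were higher and 3 lower (16.3% and 15.6%), with a median of 0.22. The 4 fell to 1 or 2 without any library but mutant perchlorate 2, and the 3 to 1 without any but WT perchlorate 2. For the difference between responses 14 were higher and 0 lower (1.89% and 0.695% over all transcripts), or 9 higher without mutant untreated 2 or mutant perchlorate 1. With shock 9 rose and 1 fell, the rises near the 18.1% over all transcripts, against 17.3% lower, or 3 and 0 without WT unshocked 1 or WT unshocked 2. TGACTC was found in 23 of these 40 promoter windows. Some of these genes were in lists of the earlier results, so their counts are not separate evidence.

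**Figure D4:**
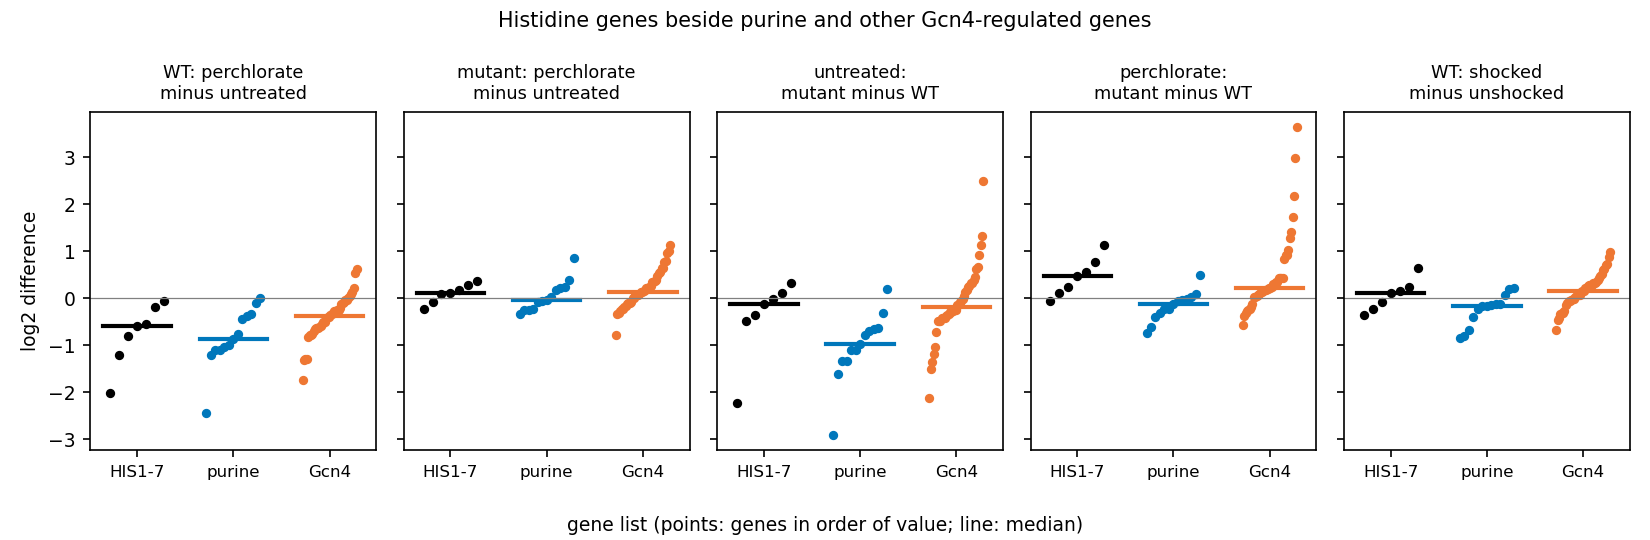
Log2 differences of the 7 histidine genes, 13 purine genes and 40 other Gcn4-regulated amino acid genes in the 5 comparisons. Each point is a gene in order of value and each line a median. In perchlorate-grown WT the medians are -0.60, -0.86 and -0.38.

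Of 8 regulator genes, 3 fell in perchlorate-grown WT (RAP1, ABF1 and GCN1; 12.1% over all transcripts), and 0 without either WT perchlorate library. In the mutant 2 fell (RAP1 and GCN1; 15.7%). Between untreated strains 1 was higher and 1 lower (GCN2 and GCN20; 11% and 11.6%), and in perchlorate 3 were higher and 1 lower (GCN2, ABF1, GCN4 and, lower, GCN20; 16.3% and 15.6%). With shock 2 rose (BAS1 and GCN1; 18.1%), and 0 without either WT unshocked library. For the difference between responses 0 were called. GCN4 had 14704 and 15569 normalized counts in untreated WT and 12130.1 and 13269.8 in perchlorate, and did not pass at -0.25 ± 0.13 (limma, adjusted p = 0.180). Its control is known to act mainly on translation, which transcript counts do not measure. In perchlorate GCN4 was higher in the mutant than in WT by 0.38 ± 0.11 (adjusted p = 0.0312), a call that ended without WT perchlorate 1, mutant perchlorate 1 or mutant perchlorate 2. GCN2, the kinase that acts before Gcn4, was higher in the mutant by 0.74 ± 0.12 untreated (adjusted p = 0.00871) and by 0.97 ± 0.12 in perchlorate (adjusted p = 0.000427). GCN20, whose product works with those of GCN1 and GCN2, was lower in the mutant, at -0.47 ± 0.13 untreated (adjusted p = 0.0410) and -0.37 ± 0.10 in perchlorate (adjusted p = 0.0218). The former call ended with TMM scaling and without WT untreated 1, mutant untreated 1 or mutant untreated 2, and the latter without WT perchlorate 1, mutant perchlorate 1 or mutant perchlorate 2. GCN1 fell with perchlorate by 0.38 ± 0.13 in WT (adjusted p = 0.0482) and by 0.29 ± 0.10 in the mutant (adjusted p = 0.0469), and neither call held with TMM scaling or edgeR. The WT call ended without any of the 4 libraries, and that of the mutant without any but mutant perchlorate 1. BAS1 was at -0.35 ± 0.19 in perchlorate-grown WT (adjusted p = 0.190) and at 0.14 ± 0.21 between untreated strains (adjusted p = 0.664). It rose by 1.08 ± 0.17 with shock (adjusted p = 0.00479), which ended without WT unshocked 1 or WT unshocked 2. PHO2 passed in none of the 6 contrasts, with adjusted p from 0.210 to 0.970. RAP1, a general factor that also acts at HIS4, fell by 0.60 ± 0.13 in WT with perchlorate (adjusted p = 0.0104), and that call ended without WT perchlorate 1 or WT perchlorate 2. In the mutant RAP1 fell by 0.37 ± 0.09 (adjusted p = 0.0137).

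On the substrate side, 5 PRS genes encode subunits of PRPP synthetase. In the WT salt comparison 1 of them fell, PRS4, at -0.47, beside 12.1% lower over all transcripts. That call ended without WT perchlorate 1 or WT perchlorate 2. PRS5 was called lower in the mutant given perchlorate (15.7% over all transcripts), from 5397 and 5597 normalized counts to 4380 and 4677. The PRS5 call ended without mutant perchlorate 1. PRS1 was called lower in the untreated mutant (11.6% over all transcripts), with 5371 and 5935 in WT and 4326 and 4494 in the mutant. The PRS1 call ended without mutant untreated 1 or mutant untreated 2. With shock 4 of the 5 rose, beside 18.1% over all transcripts: PRS3 by 0.83, PRS4 by 0.73, PRS1 by 0.72 and PRS5 by 0.48. The PRS5 call ended without WT unshocked 1 or WT unshocked 2. ADE16 and ADE17 both encode enzymes that use AICAR, and only ADE17 passed in the salt comparison of WT, where ADE16 was at 0.00460 ± 0.16 (adjusted p = 0.987). The difference between the 2 genes was not tested.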

How the data were processed

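RNA was extracted with hot phenol, and libraries were made with a directional kit, per the labels' protocols. Per the submitters' processing notes, the authors used Trim Galore for trimming, FastQC for quality checks and HISAT2 for alignment. Not given in the sources used here are the genome build, the strand setting and the tool that counted reads. For 5 comparisons the authors deposited normalized counts made with DESeq2 1.34.0, per the file headers, a signal equal to reads divided by a size factor within that table. Log2 fold changes, p-values and q-values that were deposited beside them are from the authors' DESeq2 test, and are quoted only where their table is named.

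Whole reads were recovered by dividing the values of a library by their smallest positive value, taken as 1 read. Of 118932 values 100% were whole within 0.01, and for the 8 libraries in 2 tables the reads of 0 transcripts differed. Of 5970 transcripts, 5944 matched the RefSeq R64 annotation by accession and 26 by locus tag. Of these, 3 are not reported here, nor is the promoter window of HIS1. Groups follow the sample titles. Transcripts with a mean of at least 10 normalized counts were tested within a table with limma 3.58.1 in R 4.3.3 (eBayes with trend) on log2(value + 1). The threshold for a call was an adjusted p of 0.05 by Benjamini and Hochberg over all transcripts. Log2 differences are on that scale. Adding 1 understates changes of low transcripts. Alternatives were TMM scaling, pseudocounts of 0.5 and 5, no filter, a mean of at least 50, edgeR 4.0.16 and DESeq2 1.42.0 on recovered reads, a replicate block, and leaving out each library. Standard deviations are over 2 libraries. Libraries held 14110933 to 18363356 reads.

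The genes named were HIS1 to HIS7, strain markers, regulators, substrate genes, genes of histidine use and transport, and some called genes of each counted list. Also named were the 5 transcripts most like HIS4 among those with a mean of at least 50 in every table. The members and lists were chosen with earlier results of these data known.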

Additional observations from a re-analysis of the deposited data

Results flagged for a closer look

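The responses of mutant and WT to perchlorate were set against each other for each histidine gene. HIS4 differed by 2.19 on the log2 scale, given without a test because its value in this contrast led to the choice of the genes. HIS5 differed by 1.17 (limma, adjusted p = 0.00335) and HIS1 by 0.97 (adjusted p = 0.0156) by the test of the difference itself. The HIS1 call ended in 4 of the 8 fits without a library, with an adjusted p of up to 0.0653. For each of HIS4, HIS5 and HIS1, both WT perchlorate libraries were below both untreated WT libraries. The strains also differ in LEU2, MET17 and mating-type transcripts, whose part in these differences was not tested.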

How the results depend on the processing

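Under changes of scaling, pseudocount, filter or tool, 293 of 294 values kept their direction and side of the threshold (counts within 1.5 times), and the exception was HIS7 in the difference between responses with DESeq2. Among counts, DESeq2 called 221 transcripts for that difference against 145 in the limma fit. Sample numbers are shared across groups but the labels name no shared batch, and same-numbered samples had deviations that correlated at 0.119 to 0.508. With a replicate block, 2458 transcripts were called for perchlorate in WT, 2482 between untreated strains, 3183 between strains in perchlorate and 263 for the difference between responses, and 2, 4 and 2 histidine genes for perchlorate in the mutant, untreated strains and shock. The genes gained were HIS1, lower, in the mutant (adjusted p = 0.0456), HIS6, lower (0.0106), and HIS3, higher (0.00874), between untreated strains, and HIS4, lower, with shock (0.0311). HIS2, higher between strains in perchlorate (0.0189), and HIS7 in the difference between responses (0.0304) were gained too, and no histidine gene was lost.

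Leaving out each library kept 166 of 196 values. A lone remaining library was then assumed to vary like the other group. Transcripts called ranged from 511 to 2380 for perchlorate in WT, 755 to 1553 between untreated strains, 453 to 2081 for shock and 73 to 405 for the difference between responses. Histidine genes called ranged from 3 to 5 for perchlorate in WT, 0 to 3 in the mutant, 1 to 2 between untreated strains and 0 to 2 for shock. Values that changed sign, none of them called with all libraries in, were HIS2 for perchlorate in WT (-0.20 to 0.0588) and HIS4 in the mutant (-0.0100 to 0.36). Between untreated strains they were HIS2 (-0.0206 to 0.22), HIS5 (-0.0681 to 0.0274) and HIS7 (-0.28 to 0.0282), and between strains in perchlorate HIS4 (-0.14 to 0.00323) and HIS6 (-0.0335 to 0.24). For shock HIS5 ranged from -0.19 to 0.00877. The cause was not tested.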

Other observations

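Genes that use or move histidine were tested beside the pathway. HTS1, the histidyl-tRNA synthetase, fell by 0.59 ± 0.13 on the log2 scale in perchlorate-grown WT (limma, adjusted p = 0.00962), a call that ended without WT perchlorate 1 (0.0688). It was lower in the untreated mutant, at -0.51 ± 0.09 (adjusted p = 0.0110), which ended without mutant untreated 1 (0.108), and rose by 0.43 ± 0.09 with shock (adjusted p = 0.0134), which ended without WT unshocked 2 (0.0860). In the mutant given perchlorate VBA1 and VBA2, transporters of basic amino acids into the vacuole, rose by 0.44 and 0.53, and both passed in every alternative fit. In perchlorate-grown WT they were at 0.33 ± 0.14 (adjusted p = 0.0992) and 0.42 ± 0.15 (adjusted p = 0.0641), with groups that did not overlap, and the difference between responses did not pass (adjusted p = 0.799 and 0.833). The histidine permease gene HIP1 passed in none of the 6 contrasts by limma, with adjusted p from 0.0523 to 0.891. Between untreated strains its groups did not overlap, with 3931 and 4438 normalized counts in WT and 3308 and 3203 in the mutant. There DESeq2 called 2 genes of histidine use and transport lower, against 1 (HTS1) in the limma fit.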
